A study of Bos taurus with 3 samples.

Results

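The MYC and MAX network is a set of basic helix-loop-helix leucine zipper transcription factors, and its expression is described here in bovine fetal fibroblasts of the line BFF116. The members were 10 genes taken by symbol from 31903 listed genes: MYC and MYCN as activators, MAX and MLX as shared partners, and MXD1, MXI1, MXD3, MXD4, MNT and MGA as repressors. All 10 had a row in the count table. The single group held 3 libraries, each from 70000 cultured nuclear donor cells for cloning that had been kept without serum for 48 h to synchronize the cell cycle. They carried no transgene or treatment that the labels name. The labels call the libraries biological replicates without naming a culture or animal for each, and part of their spread may thus be technical. No cells with serum were measured, so no value below is a response to starvation.

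MAX has no activation domain of its own and pairs with MYC, MXD, MNT and MGA proteins, which compete for it. MYC and MAX together bind E-box DNA and recruit acetyltransferase complexes, which raises transcription of growth genes. MXD proteins, MXI1 and MNT bind the same DNA with MAX and bring in SIN3 corepressors with histone deacetylases, and MGA joins MAX in a variant Polycomb complex. MLX is a MAX-like partner for the glucose-sensing factors MLXIP and MLXIPL and can also pair with some MXD proteins and MNT. In cultured fibroblasts of mouse and human, MYC is known as a gene that serum induces. MXD family genes other than MXD3 are known for expression in arrested or differentiating cells.

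Gene reads totalled 8608350 in replicate 1, 4842331 in replicate 2 and 7122651 in replicate 3. Levels are given in CPM, read counts scaled to the effective library size, as mean ± SD of 3 replicates. They are not corrected for transcript length, so where genes are ordered by CPM below, the order is one of reads and not of transcripts. All 9 fibroblast markers with a row reached 1 CPM in each library, with a summed level of 101100 to 112210 CPM. The epithelial, endothelial, leukocyte and skeletal muscle markers summed to between 0.202 and 4.51 CPM, with EPCAM, KDR, PTPRC, CD14, MYOD1 and DES at 0 reads. Of the 3 endothelial markers with a row, 1 reached 1 CPM in each library, and no epithelial, leukocyte or skeletal muscle marker did. The endothelial sum was 4.51, 2.62 and 1.97 CPM in replicates 1 to 3. All 4 markers of cycling cells, MKI67, TOP2A, CCNB1 and CDK1, were measured, with a summed level of 118, 101 and 104 CPM in replicates 1 to 3. Replicates 1 and 3 stood furthest apart, with 15.9% of 10434 genes differing more than 2-fold, against 8.51% between replicates 1 and 2 and 5.24% between replicates 2 and 3.

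In these cells 5 members of the network had usable reads, namely MYC, MAX, MXD1, MXI1 and MGA. These 5 of 10 members reached 1 CPM in each library, the level called measured here, where 34.6% of all listed genes were. Each role kept 1 or more such members, with 1 of 2 activators, 1 of 2 partners and 3 of 6 repressors. MYCN, MXD3, MXD4 and MNT had between 2 and 22 reads over all libraries together, and MLX was listed at 0.

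**Figure D1:**
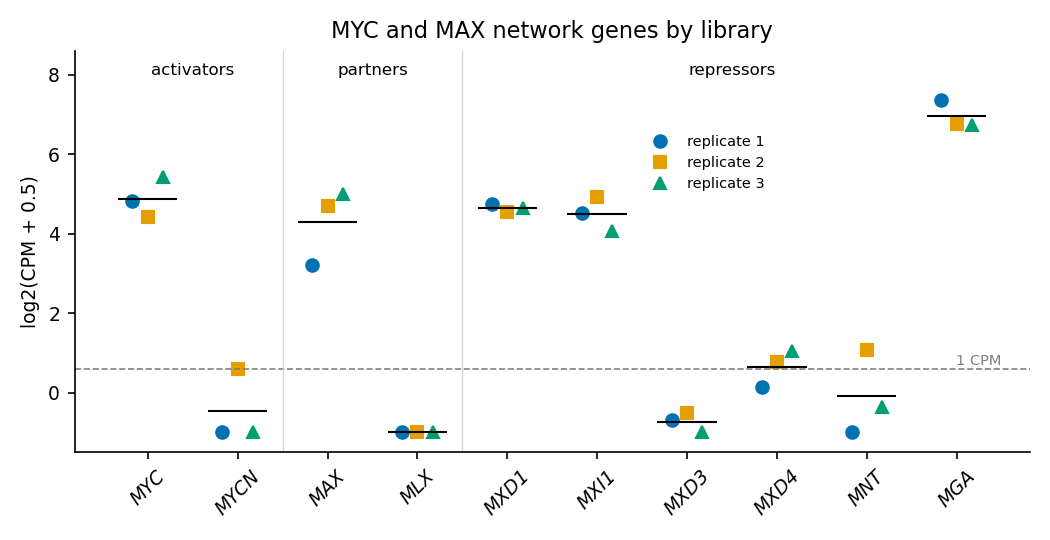
Level of each member as log2(CPM + 0.5), with 1 symbol for each of the 3 libraries and a bar at their mean; the dashed line marks 1 CPM. MYC, MAX, MXD1, MXI1 and MGA lie above the line in all 3 libraries, and MLX lies at the value of 0 reads.

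MYC, the oncoprotein that drives ribosome production and cell growth, had 232, 103 and 301 reads in replicates 1 to 3, or 27.6, 20.8 and 42.4 CPM. Its mean was 30.2 ± 11.0 CPM (SD, n = 3), and replicate 3 stood 2.04-fold above replicate 2. The counting intervals of these 2 libraries were 37.7 to 47.4 CPM in replicate 3 and 16.9 to 25.2 CPM in replicate 2 (exact Poisson, 95%), so they did not overlap. Such intervals hold for counting error alone, because reads from PCR copies were not told apart from reads of separate molecules. In bulk RNA, fewer expressing cells and less RNA per cell cannot be told apart. MYCN, the MYC paralog known from neural and embryonic cells, had reads in 1 library, with 0, 5 and 0. For MYCL, the third MYC gene and not a member, there were 1, 2 and 3 reads. A count of 0 allows up to 3 reads, which was 0.356, 0.605 and 0.422 CPM in replicates 1 to 3.

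MAX was the least even of the 5 measured members. It had 73, 127 and 223 reads, or 8.67, 25.6 and 31.4 CPM, with a mean of 21.9 ± 11.8 CPM (SD, n = 3). Replicate 1 was low and replicates 2 and 3 were close to each other, and the highest library exceeded the lowest 3.62-fold. Without replicate 1 the mean was 28.8 CPM. Over 10434 genes with 10 or more reads in every library, the highest library exceeded the lowest by a median of 1.54-fold (quartiles 1.29 and 1.99).

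MLX was listed at 0 reads in all 3 libraries, and this value is uncertain. In the RefSeq gene order its neighbours NAGLU, HSD17B1 and COASY on one side and TUBG1 on the other were also listed at 0. COASY encodes an enzyme of coenzyme A synthesis and TUBG1 encodes gamma tubulin, both of which animal cells generally use. PSMC3IP, which overlaps MLX in this annotation, had 5 reads in each library. Further out, STAT3 had 1110, 744 and 1067 reads and TUBG2 had 97, 77 and 149. Whether reads could be assigned to MLX was not tested.

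The 3 measured repressors differed in how steady they were. MXD1, which is known to replace MYC on MAX as cells differentiate, was the steadiest of the 5 measured members, with 220, 114 and 173 reads, or 26.1, 23.0 and 24.3 CPM. Its mean was 24.5 ± 1.58 CPM (SD, n = 3), a coefficient of variation of 6.47%, where the median over the 10434 genes was 22.4%. MXI1, a close relative of MXD1, had 187, 147 and 116 reads, or 22.2, 29.6 and 16.3 CPM, with a mean of 22.7 ± 6.66 CPM (SD, n = 3). It was highest in replicate 2, the library where MYC was lowest, and lowest in replicate 3, where MYC was highest. MXD1 and MGA were instead both highest in replicate 1, and with 3 libraries of 1 condition no correlation was computed.

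MGA, a very large protein that carries a T-box domain beside its MAX-binding domain, had 1377, 531 and 757 reads, or 164, 107 and 107 CPM. The mean was 126 ± 32.8 CPM (SD, n = 3), with replicate 1 high and the other 2 libraries alike. MGA drew 65.7% of the members' reads in replicate 1 (exact binomial 95% interval 63.7 to 67.8), 51.0% in replicate 2 (47.9 to 54.0) and 47.8% in replicate 3 (45.3 to 50.3). A long transcript draws more reads at the same number of molecules, so this share is one of reads and not of transcripts. LOC101907206, which overlaps MGA in the annotation, had 23, 13 and 10 reads, and reads of the 2 genes cannot be told apart where strand was not used in counting.

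The other 3 repressors were near the detection limit. MXD4 had 5, 6 and 11 reads, or 0.594, 1.21 and 1.55 CPM, and passed 1 CPM in replicates 2 and 3 alone. MNT, which is known as a broadly expressed antagonist of MYC in mouse and human cells, had 0, 8 and 2 reads, so that 8 of its 10 reads came from the shallowest library. MXD3, known in mouse from S phase of proliferating progenitors, had 1, 1 and 0 reads. Both flanking genes of MNT with rows had reads in every library, SGSM2 with 7, 3 and 41 and METTL16 with 135, 46 and 61. Likewise PRELID1 (510, 348 and 405 reads) and LMAN2 (202, 113 and 244 reads) flank MXD3, and HAUS3 next to MXD4 had 314, 110 and 180. On its other side MXD4 lies next to ZFYVE28, with 0, 0 and 10 reads. Within 5 genes on either side, 6 of 10 neighbours of MXD3 were at 0, against 4 of 10 for MLX, 2 for MNT and 0 for MXD4. For the 5 measured members this number ran from 0 for MAX to 3 for MYC. Among all listed genes, 18039 of 31903 had a read in any library. Whether reads could be assigned to MXD3, MXD4 and MNT was not tested.

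Repressors were set against activators by their reads within each library, since no transcript lengths were available. The 6 repressors together drew 1790, 807 and 1059 reads, against 232, 108 and 301 reads of MYC and MYCN. The ratio was 7.72 in replicate 1, 7.47 in replicate 2 and 3.52 in replicate 3, and the mean log2 ratio was 2.55 ± 0.64 (SD, n = 3). It was above 0 in every library, and replicate 3 stood apart with a ratio below the others. The exact two-sided sign-flip permutation test gave p = 0.25, the smallest that 3 replicates allow. Its null is a log2 ratio of 0, on which raw reads of 6 genes against 2 need not centre. Neither gene number nor transcript length is corrected for in these sums, so a log2 ratio above 0 does not by itself mean more repressor transcripts.

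Most of this excess of reads was MGA. Without it, the other 5 repressors drew 413, 276 and 302 reads, against 232, 108 and 301 reads of MYC and MYCN. The mean log2 ratio was then 0.73 ± 0.68 (SD, n = 3), with a ratio of 1.78 in replicate 1, 2.56 in replicate 2 and 1.00 in replicate 3 (exact binomial 95% interval 0.852 to 1.18). In replicate 3 the reads of these repressors and of the activators were therefore about equal, and the excess seen in the other libraries was not detectable there.

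Taken singly, MGA drew more reads than MYC in all 3 libraries, by 5.94, 5.16 and 2.52 times, with a log2 ratio of 2.09 ± 0.66 (SD, n = 3). MXD1 and MYC had no common direction, with a log2 ratio of -0.24 ± 0.49. MXI1 over MYC was likewise of both signs, at -0.39 ± 0.94, and its ratio ran from 1.43 in replicate 2 to 0.385 in replicate 3. Both means changed sign without replicate 3, to 0.035 for MXD1 and 0.10 for MXI1.

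MAX over MYC also differed between libraries. The ratio of MAX reads to MYC reads was 0.315 in replicate 1 (exact binomial 95% interval 0.238 to 0.411), 1.23 in replicate 2 (0.943 to 1.61) and 0.741 in replicate 3 (0.620 to 0.884). The intervals of the 3 libraries did not overlap, and the mean log2 ratio was -0.60 ± 0.99 (SD, n = 3).

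**Figure D2:**
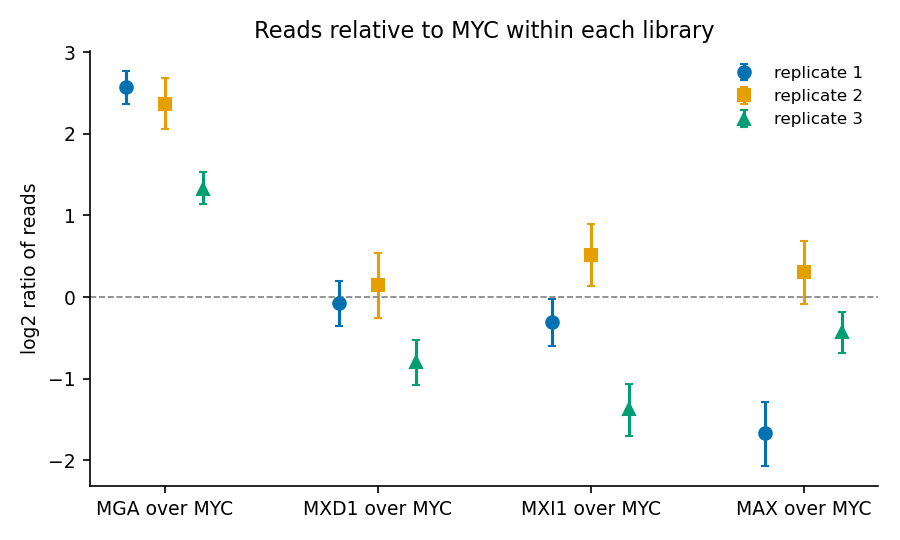
Log2 ratio of the reads of MGA, MXD1, MXI1 and MAX over those of MYC in each of the 3 libraries, with exact 95% binomial intervals that cover counting error only. MGA over MYC lies above 0 in all 3 libraries, while the other 3 pairs fall on both sides of 0.

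The members with few reads lay far below MYC in reads. Over all libraries together MXD4 had 0.0346 reads for each read of MYC (exact binomial 95% interval 0.0215 to 0.0528), MNT 0.0157 (0.00750 to 0.0291) and MXD3 0.00314 (0.00038 to 0.0114). For MYCN the ratio was 0.00786 (0.00254 to 0.0184), and all 5 of its reads came from replicate 2. The ratio for MNT also rests on that library, with 0 in replicate 1, 0.0777 in replicate 2 and 0.00664 in replicate 3, and it was 0.00375 without replicate 2. For MXD3 it rests on 2 reads, and it was 0.00188 without replicate 2 and 0.00597 without replicate 3. For MYCN and MNT it was 0.0124 and 0.0248 without replicate 1, and 0.0149 and 0.0239 without replicate 3. Of the 9 pairs set against MYC, 6 had 1 sign in every library. For MLX that sign is fixed by its 0 reads, and the pseudocount sets only the size. The exact permutation p of these 6 pairs was 0.25, the lowest that 3 replicates allow, and their adjusted p over the 9 pairs was 0.375.

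Among the repressors, MGA drew 6.26, 4.66 and 4.38 times the reads of MXD1, a log2 ratio of 2.33 ± 0.28 (SD, n = 3). MGA over MXI1 was 2.48 ± 0.55, and MAX over MGA, which was lowest in replicate 1, was -2.68 ± 1.35. The log2 ratio of MXD1 over MXI1 was 0.15 ± 0.48 and of both signs. MXD1 and MXI1 changed places between libraries, with MXD1 ahead in reads in replicates 1 and 3 and MXI1 in replicate 2.

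Whether any member varied more than genes of its level was tested with edgeR over the 10434 genes, by a negative binomial Pearson statistic with Benjamini-Hochberg adjustment. Of all genes 2, or 0.0192%, were called at an adjusted p under 0.05, and 0 of the 5 members tested were among them. Over all genes this count was 6 without replicate 1 and 0 without replicate 2 or replicate 3, and 0 members were called in any of these fits. At an unadjusted p under 0.05 there were 547 genes, or 5.24%, and 1 of the 5 members, MAX. For MAX the p was 0.026 and the adjusted p was 0.78 in edgeR, and its statistic exceeded that of 96.7% of the genes tested. MYC stood above 86.3% of the genes and MXD1 above 6.90%, with edgeR adjusted p-values of 1.00 each. The DESeq2 dispersion trend also called 0 members, with an adjusted p of 0.97 for MAX. In simulated libraries of the same 10434 genes and depths a 4-fold rise in a single replicate was called for 57 of 100 genes and a 2-fold rise for 9 of 100, so a change of the size seen for MYC would mostly be missed.

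**Figure D3:**
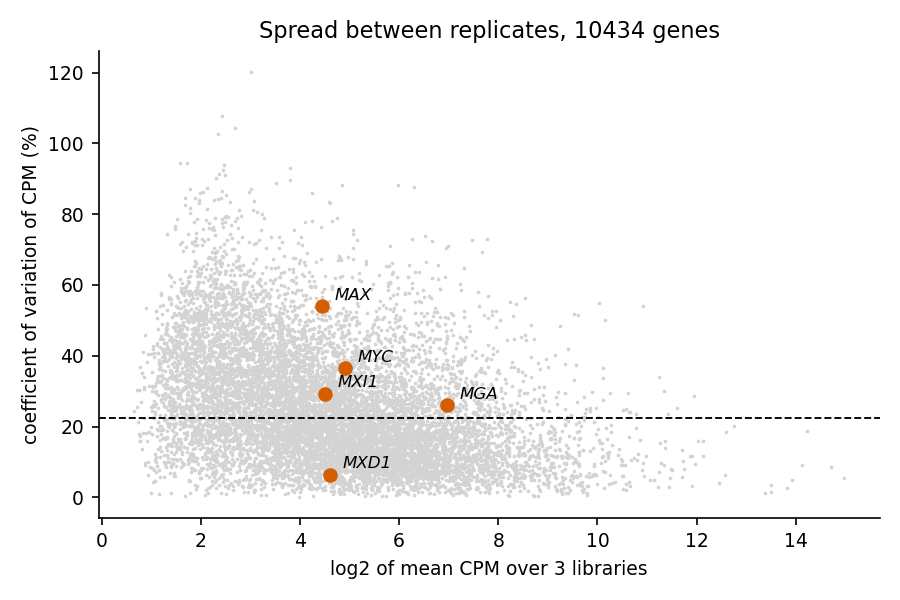
Coefficient of variation of CPM over the 3 libraries against log2 mean CPM for 10434 genes (grey) and the 5 members tested (orange); the dashed line is the median of all genes, 22.4%. MAX lies high in the cloud at 53.9%, and MXD1 lies near its lower edge at 6.47%.

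The partners of MLX had few reads while the best-known genes under their control had many. MLXIP, also called MondoA, had 5, 9 and 32 reads, and MLXIPL, the carbohydrate response factor of liver, had 1, 1 and 2. TXNIP, an inhibitor of glucose uptake, stood at 173 ± 37.0 CPM, and ARRDC4, a related arrestin, at 46.3 ± 17.3 CPM (SD, n = 3 each). Of this branch 2 of 5 genes were measured, against 34.6% of all listed genes. Whether reads could be assigned to MLXIP and MLXIPL was not tested, and no test ties the levels of TXNIP and ARRDC4 to them. MLXIP was highest in replicate 3 and ARRDC4 in replicate 1, with 63.2, 47.2 and 28.6 CPM in replicates 1 to 3. TXNIP was highest in replicate 2, with 160, 214 and 144 CPM.

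Genes of the corepressor machinery used by MXD proteins were nearly all present. Among 15 SIN3 complex and associated genes with a row, 14 were measured, against the 34.6% of all genes. They included SAP18 (221 ± 8.42 CPM), the deacetylase HDAC1 (141 ± 9.39 CPM) and the corepressor NCOR1 (140 ± 10.1 CPM), and the exception was ING1 with 9, 7 and 7 reads. The scaffold SIN3A stood at 87.3 ± 6.62 CPM and its paralog SIN3B at 4.84 ± 1.63 CPM (SD, n = 3 each). HDAC2 had an uneven level, with 1460, 610 and 298 reads, and the edgeR adjusted p of its spread was 0.28.

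All 14 genes of the MGA-containing Polycomb complex in the table were measured, against 34.6% of all listed genes. With MGA and MAX themselves among them, the list was led by HDAC1, MGA and RYBP (125 ± 11.1 CPM), which stimulates the ubiquitin ligase of the complex. PCGF6, the subunit that defines this variant complex, had 79, 21 and 94 reads, or 8.95 ± 4.51 CPM, and L3MBTL2, which binds histones, had 31, 20 and 60 reads, or 5.38 ± 2.65 CPM. E2F6, its other DNA-binding subunit, stood at 16.5 ± 2.14 CPM (SD, n = 3 each). MAX, CBX1 and HDAC2 were the 3 of 14 genes at an unadjusted p under 0.05 in edgeR, against 5.24% of all genes, and 0 of 14 passed after adjustment, against 0.0192%. The same unadjusted count was 1 of 14 for the corepressors, HDAC2 again, 2 of 20 for the genes of MYC stability and 1 of 34 for the MYC-induced genes described below. It was 0 for the MLX branch, the coactivators, the factors acting on MYC, the MYC-repressed genes and the other E-box factors, and 0 genes of any list passed after adjustment. CBX1, a heterochromatin protein, had 119, 72 and 232 reads.

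Coactivators of MYC were measured in 14 of 16 cases, against 34.6% of all listed genes. Among them were the acetyltransferases CREBBP (158 ± 8.48 CPM) and KAT2B (64.2 ± 23.9 CPM) (SD, n = 3 each). TRRAP, the large scaffold that MYC binds, stood at 59.5 ± 12.5 CPM. KAT2A was below the limit with 13, 4 and 2 reads. RUVBL2 was listed at 0 in every library although its ATPase partner RUVBL1 stood at 24.9 ± 9.41 CPM (SD, n = 3), and its value is uncertain. In the RefSeq order RUVBL2 lies in a run of 7 genes, from BAX to KCNA7, with at most 1 read each, and FTL, the ferritin light chain gene, was the one with 1 read.

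Genes whose products act on the stability or activity of MYC protein were all measured, 20 of 20, against 34.6% of all listed genes. The ubiquitin ligase HUWE1 (515 ± 29.7 CPM), the phosphatase subunit PPP2CA (200 ± 20.5 CPM) and the deubiquitinase USP7 (132 ± 1.64 CPM) drew the most reads. FBXW7, the ligase subunit that recognizes phosphorylated MYC, stood at 8.56 ± 2.47 CPM, and its antagonist USP28 at 55.7 ± 9.72 CPM (SD, n = 3 each). The mitotic kinase gene PLK1 had 26, 11 and 63 reads, and the edgeR adjusted p of its spread was 0.80.

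Factors that act on the MYC gene or beside the MYC protein were measured in 9 of 10 cases, against 34.6% of all listed genes. HNRNPK (567 ± 33.1 CPM), CNBP (371 ± 32.7 CPM) and FUBP1 (146 ± 18.1 CPM), which are known to bind control elements of MYC in human cells, drew the most reads (SD, n = 3 each). ZBTB17, also called MIZ1, through which MYC represses genes, had 18, 17 and 21 reads, or 2.84 ± 0.652 CPM (SD, n = 3). TFAP4, an E-box factor that MYC induces, was below the limit with 2, 0 and 7 reads.

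Of 39 genes known from human and mouse cells to be induced by MYC, 34 were measured, against 34.6% of all listed genes. The nucleolar proteins NPM1 (1700.2 ± 190.5 CPM) and NCL (680 ± 75.8 CPM) and the chaperonin HSPD1 (916 ± 120 CPM) drew the most reads (SD, n = 3 each). The 5 below the limit were the cell cycle genes CDC25A (7, 11 and 4 reads), E2F1 (0, 1 and 3) and E2F2 (2, 1 and 3), the folate enzyme SHMT1 (2, 0 and 0) and TERT, the telomerase gene, with 0. ODC1, the rate-limiting enzyme of polyamine synthesis and a classic MYC target, stood at 73.6 ± 10.4 CPM, and CAD, of pyrimidine synthesis, at 23.1 ± 6.86 CPM (SD, n = 3 each). Of the 20 genes known to be repressed by MYC, 19 were measured, led by COL1A2, THBS1 and ITGB1 (964 ± 61.7 CPM), and CEBPA was listed at 0. No test ties the level of these genes to MYC.

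The level of MYC was set beside these lists library by library. MYC deviated from its mean log2 level by -0.07, -0.47 and 0.54 in replicates 1 to 3. Over the 34 induced genes the median deviation was -0.030, 0.0051 and -0.0098, where the median over all 10434 genes was -0.0039, 0.0082 and 0.0080. The median of the induced genes thus lay close to that of all genes in each library, also in replicate 3 with the most MYC. Of these genes 14 of 34, or 41.2%, were highest in replicate 3, against 36.3% of all genes. As many, 14 of 34, were highest in replicate 1, against 39.3% of all genes. Of the 18 repressed genes tested 11, or 61.1%, were highest in replicate 3, with a median deviation there of 0.17.

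MAX deviated by -1.10, 0.41 and 0.70, and the 14 coactivator genes had medians of -0.28, 0.088 and 0.15. Of these coactivators 9 of 14, or 64.3%, were highest in replicate 3, against 36.3% of all genes. Medians also rose in the order of the replicates for MYC stability (-0.10, 0.031 and 0.076) and factors acting on MYC (-0.15, 0.034 and 0.068). The MYC-repressed genes had the same order (-0.071, 0.012 and 0.17), while the corepressor, Polycomb, MYC-induced and other E-box lists did not. The corepressor list had medians of 0.032, -0.048 and -0.027, close to those of all genes. The 3 measured repressors had deviations of 0.41, -0.20 and -0.21 for MGA, 0.094, -0.088 and -0.0062 for MXD1 and 0.0086, 0.42 and -0.42 for MXI1. These shares and medians describe 3 libraries, within which all genes share a depth and an amplification, and no test was made of them.

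**Figure D4:**
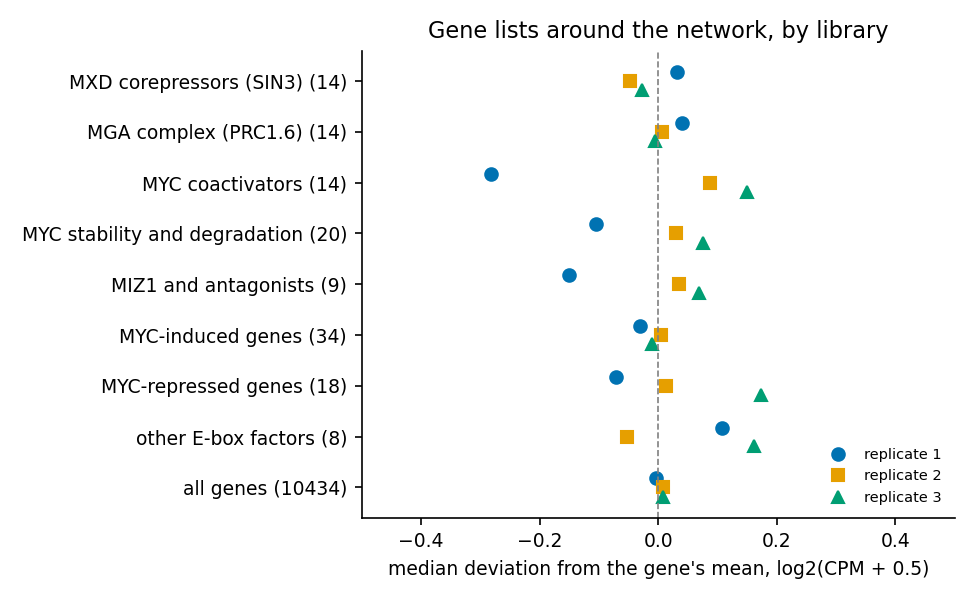
Median deviation of each gene list from the mean log2(CPM + 0.5) of its genes, by library, with the number of genes in brackets; MAX and MGA are among the 14 genes of the Polycomb list. The coactivator list lies at -0.28 in replicate 1 and at 0.15 in replicate 3, while the MYC-induced list lies near 0 in all 3 libraries.

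Other E-box factors, with or without a leucine zipper, were measured in 9 of 11 cases, against 34.6% of all listed genes. BHLHE40, a clock-linked repressor without a zipper, stood at 108 ± 5.55 CPM, SREBF2, which controls sterol synthesis, at 70.7 ± 26.8 CPM and TFE3, a lysosomal regulator, at 65.4 ± 16.7 CPM (SD, n = 3 each). USF1 and USF2, which bind the same CACGTG core as MYC and MAX, stood at 5.50 ± 1.14 CPM and 10.7 ± 1.76 CPM. TFEB (7, 13 and 7 reads) and BHLHE41 (3, 2 and 2 reads) were below the limit.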

How the data were processed

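The deposited values are raw counts of reads per gene, with 1 column for each of 3 replicates and 0 columns of other samples. The submitters' processing notes name HTSeq 0.6.1, TopHat2 2.0.10 and bcl2fastq 2.18.0.12. Build, annotation and strand use: not given in the sources used here. Per the labels' protocols, cDNA was amplified isothermally with a single primer, libraries had 10 PCR cycles, and reads were 100 bases long. The 5 summary rows that name no gene were left out, of which reads in no gene were 58.9 to 62.0% of each column and reads with several alignments 7.52 to 7.99%.

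CPM and the dispersion fit came from edgeR 4.0.16 (R 4.3.3, TMM), and the alternative trend from DESeq2 1.42.0. Spread was tested for genes reaching 10 counts in each library, at an adjusted p under 0.05, and this test was tested on simulated data. A gene at 1 CPM or more in every library was called measured. Ratios used a pseudocount of 0.5 read. Per-length ratios had been planned, but no transcript lengths were available, so read ratios are given. RefSeq (ARS-UCD2.0) served for gene order alone. The members and the 12 lists (162 genes, 156 with a row) were chosen with earlier results of these data known. Genes named are all members, the 3 with most CPM per list, members below the limit where 5 or fewer, and MYCL, MLXIP and MLXIPL; other genes were named after their values were seen. List members without a row were not analysed here, and some results that this rule would name are not reported here.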

Additional observations from a re-analysis of the deposited data

How the results depend on the processing

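Of 126 alternative values, 116 kept their direction and stayed within the spread between replicates or, for counts, within 1.5 times. Member levels moved by no more than 1 SD in all 50 alternatives, which covered RLE size factors, library totals and each replicate left out. Leaving out 1 of 3 replicates can hardly move a mean past the SD of those 3, so it says little about stability. Ratios with a replicate left out are bound in the same way and could fail only by a change of sign. Much of the count of 116 was thus nearly fixed in advance, and for MLX the SD was 0. The number of measured members was 6 at 0.5 CPM, 5 at 10 counts, 9 with any read, and 5 to 6 with a replicate left out, where MXD4 was the sixth. The log2 ratio of repressors over activators was 2.35 to 2.92 with a replicate left out and 0.73 without MGA. With a replicate left out, MXD1 over MYC ran from -0.44 to 0.035 and MXI1 over MYC from -0.84 to 0.10, both positive without replicate 3. MLX over MYC, with MLX at 0, was set by the pseudocount, at -10.9 with 0.1 and -7.60 with 1. Genes variable between replicates numbered 2, with 5 under RLE factors, 6 without replicate 1 and 0 without replicate 2 or 3, and the cause was not tested. The members called numbered 0 in every setting. Without replicate 1 MYC, in place of MAX, was at an unadjusted p under 0.05, with an edgeR adjusted p of 0.91. Depth limits MYCN, MXD3, MXD4 and MNT, whose levels rest on 22 reads or fewer. No paired analysis was possible because the series has 1 group.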
